A study of Mus musculus with 18 samples.

Results

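The net change in gene expression over the first days of differentiation was measured by comparing the 3 Day3_differentiation libraries with the 3 Day0_differentiation libraries, which are 6 of the 18 RNA-seq libraries of the study and 6 of the 12 of its time course. All of them came from E14 mouse embryonic stem cells (mESCs) of the genotype Rex1GFPd2-Cas9, a line selected for Cas9 insertion that carries a short-lived GFP at the Rex1 (*Zfp42*) locus and Cas9 at *Rosa26*; no gene was knocked out in these libraries. Day0 is the state before differentiation and Day3 the third day of it. In the study's general methods the cells were kept on mitomycin C-treated mouse fibroblasts in serum with LIF, and differentiated in NDiff227 medium, which lacks serum, LIF and the self-renewal inhibitors. For its differentiation experiments the study describes sorting of Rex1GFP+ cells from serum with LIF and plating on gelatin in NDiff227, with day 0 samples of its qPCR taken right after the sort. Whether the sequenced time course followed this procedure, and whether its replicates came from separate cultures, is not given in the sources used here. The p-values therefore measure the spread between these libraries, which may be technical. If the procedure was followed, the day cannot be told apart from the change of medium and substrate in any result below.

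Naive mESCs correspond to the epiblast of the embryo before implantation and are held in self-renewal by LIF, acting through Stat3, together with a set of transcription factors around *Nanog*, *Esrrb* and *Klf4*. When these signals are withdrawn the cells pass through a formative state like the epiblast just after implantation, in which *Pou5f1* stays on, *Fgf5*, *Otx2* and the de novo methyltransferases come on, and the cells become able to enter the germ layers. The epiblast turns at that time into a polarised epithelium, and pluripotent cells are known to change their use of glycolysis, mitochondria and lipids as they leave the naive state.

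Of 14382 genes with enough counts to be tested, 10201 (70.9%) differed between Day3 and Day0 at an adjusted p under 0.05, 5035 higher (35.0%) and 5166 lower (35.9%) at Day3. A change of at least 2-fold with that p was found in 4285 genes (29.8%), of which 2407 were higher (16.7%) and 1878 lower (13.1%). Most of the called differences were smaller than that, with a median absolute log2 fold change of 0.80 among the called genes. These shares are the background for every count below: a list of genes in which about 70.9% of the members are called matches the share over all genes. The 3 libraries of one day did not overlap with the 3 of the other in 73.5% of the tested genes, so a gap between the days is likewise the rule and not particular to any gene named below. Levels are given in CPM, counts scaled to a common library size, which compare a gene between libraries; levels of different genes are compared only in TPM, which are also scaled for transcript length. The libraries held 12503005 to 15305054 estimated counts over the 12 libraries of the time course, and the first principal component, with 91.6% of the variance of the 6 libraries, separated Day3 from Day0. Day0 replicate 3 lay apart from the other Day0 libraries on the second component, which held 2.97%.

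**Figure D1:**
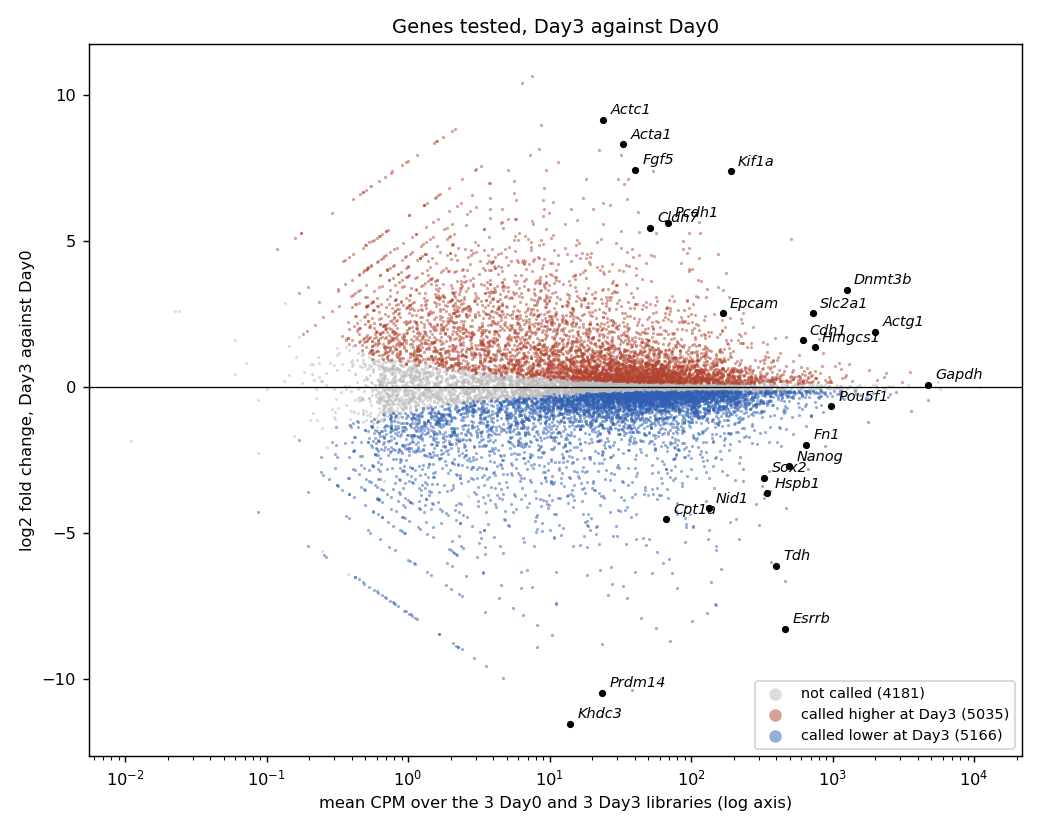
Each point is one of the 14382 genes tested, by its mean CPM over the 6 libraries (log axis) and its log2 fold change at Day3 against Day0; red points were called higher (5035), blue points lower (5166) and grey points were not called. Calls in both directions are found at every level of expression, with *Esrrb*, *Prdm14* and *Khdc3* among the largest falls and *Actc1*, *Acta1* and *Fgf5* among the largest rises.

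Of the 12 largest falls with a mean of at least 10 CPM, 5 were in genes of the naive pluripotency list (*Esrrb*, *Prdm14*, *Tcl1*, *Nr0b1* and *Nr5a2*), and the other 7 were not on it. *Khdc3*, which encodes a protein of the oocyte and early embryo, gave 29.6, 24.3 and 30.2 CPM at Day0 and no count in any Day3 library, at least 130-fold lower against a floor of 3 counts per library. *Esrrb*, an orphan nuclear receptor at the centre of the naive network, fell from 895, 887 and 983 CPM to 3.39, 2.90 and 2.48 CPM (log2 fold change -8.29, SE 0.13, adjusted p = 5.39e-19). No Day3 library came near a Day0 library for either gene, but genes with overlap between the days had been left out of this ranking. *Prdm14* and *Tcl1* also fell to the level of single counts, with 46.6 to 48.6 CPM and 64.1 to 90.8 CPM at Day0. Their fitted log2 fold changes of -10.47 and -10.39 rest on 1 Day3 library each, without which they were -12.29 and -12.98, so only the direction should be read. *Nr0b1*, *Accsl*, *Nr5a2*, *Jam2*, *Phf11d*, *Trpm1*, *Laptm5* and *Septin1* completed the 12 largest falls.

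The largest rises were of more mixed kinds. *Actc1* and *Acta1*, the cardiac and skeletal muscle actins, led with log2 fold changes of 9.15 and 8.31, and *Cnn1*, a smooth muscle calponin, was among the 12. *Car4*, a membrane carbonic anhydrase, rose from 0.245, 0.133 and 0.0787 CPM to 47.2, 41.5 and 44.9 CPM. *Kif1a*, a neuronal kinesin motor, rose from 2.13, 2.39 and 2.20 CPM to 409, 381 and 348 CPM (log2 fold change 7.39, SE 0.31, adjusted p = 1.12e-08). The Day3 libraries of both genes lay close together and far from Day0, but genes with overlap had been left out of this ranking too. *Enpp2*, *Jakmip2*, *Fgf5*, *Fndc3c1*, *Mmp25* and *Zfp608* were also among them. Per length, the largest absolute gains were in *Actg1*, cytoplasmic gamma-actin, from 857 ± 15.4 to 3362 ± 455 TPM (SD, n = 3), and *Tuba1a*, an alpha-tubulin, from 387, 384 and 404 CPM to 1438, 1316 and 1345 CPM, or to 1809 ± 84.6 TPM. The largest absolute losses were in *Dppa5a*, from 3328 ± 155 to 197 ± 37.4 TPM, and in *Hspb1*, a small heat shock protein, from 1528 ± 54.0 to 130 ± 14.8 TPM.

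Among the lineage genes, 17 of 18 naive pluripotency genes were called lower and none higher, with a median log2 fold change of -5.79, against a median of -0.013 over all genes tested. *Zfp42*, the gene that carries the reporter, read 671, 738 and 753 CPM at Day0 and 11.1, 12.8 and 9.64 CPM at Day3. *Klf4* read 300, 321 and 338 CPM and then 6.59, 3.40 and 2.41 CPM. *Nanog* had a smaller net fall, with 839, 927 and 810 CPM at Day0 against 101, 119 and 171 CPM at Day3 (log2 fold change -2.72, SE 0.20, adjusted p = 8.48e-07). Its means in between were lower, 24.2 CPM on Day1 and 38.6 CPM on Day2. The Day0 and Day3 libraries did not overlap for any of the 3 genes. *Gbx2* was the only one of the 18 that was not called, with mean levels of 25.9 and 17.1 CPM and a log2 fold change of -0.60 (adjusted p = 0.061); it was called lower when Day0 replicate 2 or Day3 replicate 3 was left out. In RNA from many cells, fewer cells of a type and less RNA per cell cannot be told apart, here or in any result below.

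General pluripotency genes fell less. All 15 were called, 12 lower and 3 higher, and their median log2 fold change was -0.55. *Pou5f1* (Oct4) read 1190, 1141 and 1261 CPM at Day0 and 674, 856 and 737 CPM at Day3, a fall of 1.58-fold without overlap. *Sox2*, its partner, fell further, from 558, 638 and 573 CPM to 67.6, 67.4 and 70.1 CPM (log2 fold change -3.11, SE 0.08, adjusted p = 5.29e-17). *Tdgf1*, the Nodal co-receptor Cripto, went from 591, 637 and 604 CPM to 24.1, 50.6 and 57.1 CPM. The RNA-binding proteins *Lin28a* and *Lin28b*, which block let-7 maturation, rose 2.13-fold and 4.66-fold, and *Lin28b* read 28.6, 30.5 and 31.8 CPM against 137, 129 and 157 CPM. The list thus held small falls, deep falls and rises.

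Formative and epiblast genes moved upward on balance: of 19, 14 were called higher and 5 lower, all at least 2-fold, with a median log2 fold change of 2.11. *Fgf5*, the standard marker of the post-implantation epiblast, rose from 0.573, 0.464 and 0.315 CPM to 74.4, 81.5 and 83.7 CPM (log2 fold change 7.44, SE 0.19, adjusted p = 4.35e-16). *Pou3f1* (Oct6) rose from 4.50, 4.64 and 3.93 CPM to 202, 244 and 219 CPM. *Dnmt3b*, a de novo DNA methyltransferase, reached 2069, 2596 and 2222 CPM from 229, 190 and 266 CPM. Each of these groups of libraries was tight and did not overlap. *Otx2* rose 5.29-fold, from a mean of 15.9 CPM to 78.5, 97.2 and 77.5 CPM. The list also held genes that ended lower: *Dnmt3l*, the cofactor of the de novo methyltransferases, fell from 275, 275 and 330 CPM to 5.36, 9.34 and 5.50 CPM (log2 fold change -5.44, SE 0.26, adjusted p = 3.19e-08), and *Foxd3* fell 3.10-fold. The Day1 and Day2 means of *Dnmt3l* were 592 and 45.9 CPM and those of *Otx2* 157 and 82.6 CPM, so the net change of these genes hides a higher level in between.

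A set of 8 DNA methylation enzymes, assembled after their values had been seen, also split, with 3 called higher and 5 lower. *Dnmt3a* rose 4.86-fold, *Dnmt3b* 10.1-fold and the oxidase *Tet3* 3.35-fold. The means of *Dnmt3a* were 1050 CPM on Day1, 450 CPM on Day2 and 275 CPM on Day3, so its level was falling by then. *Dnmt3b* was also higher on Day2, with a mean of 2863 CPM against 2295 CPM on Day3. *Tet2*, another oxidase of methylcytosine, fell 20.6-fold, *Tet1* 3.75-fold, and the maintenance methyltransferase *Dnmt1* and its partner *Uhrf1* 1.39-fold and 1.68-fold.

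**Figure D2:**
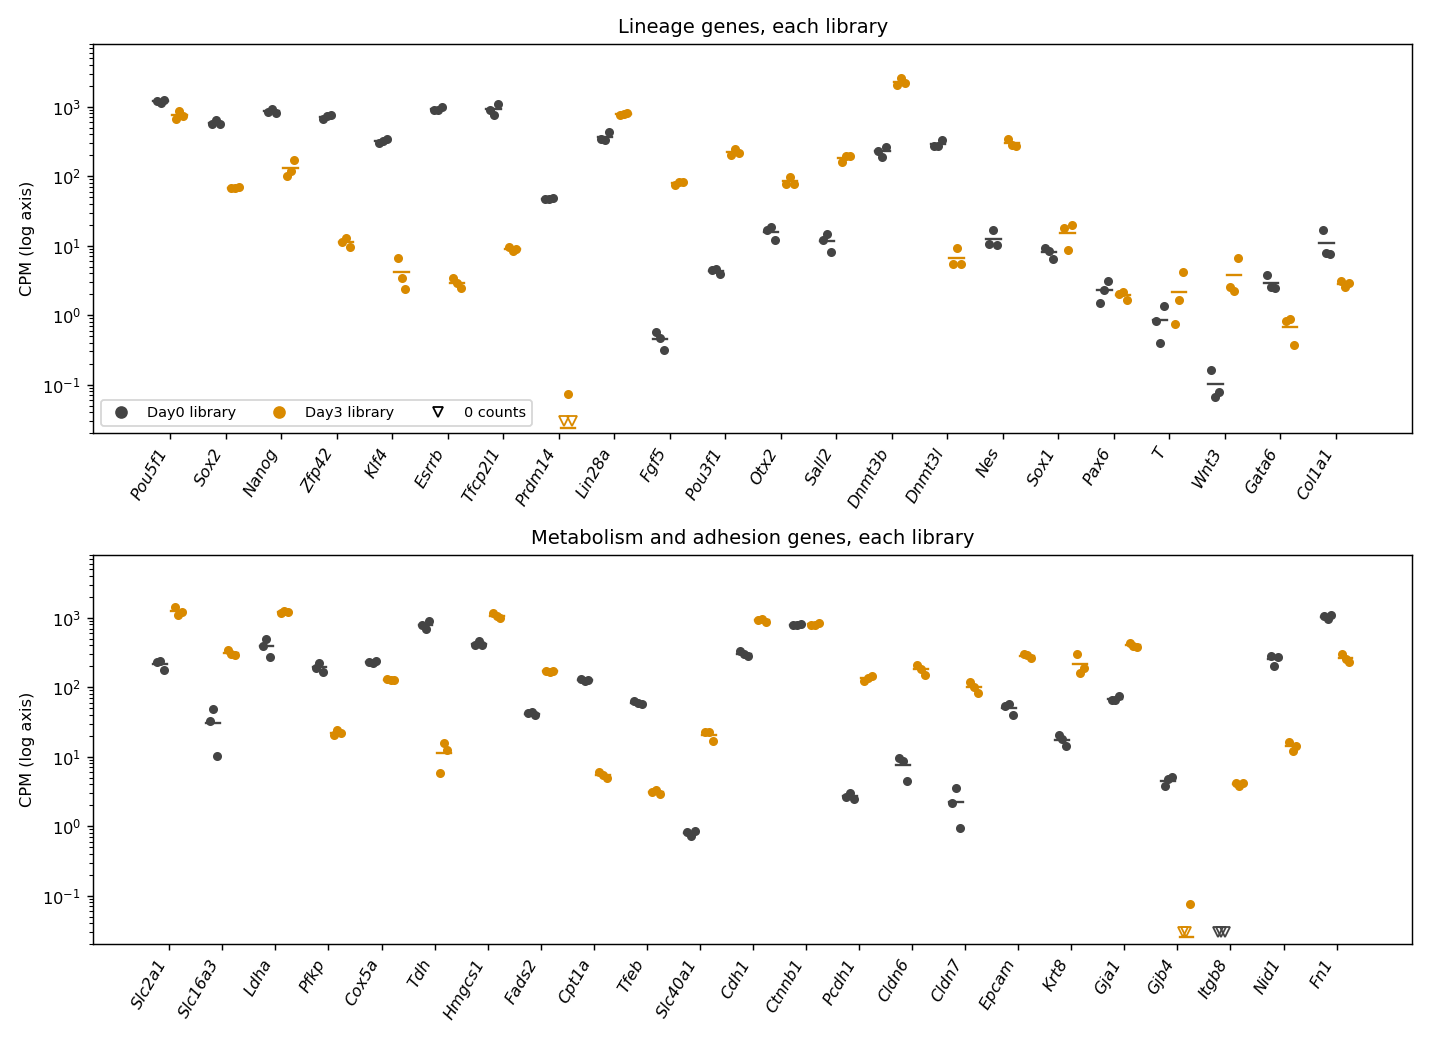
CPM on a log axis in each of the 3 Day0 (grey) and 3 Day3 (orange) libraries for 22 lineage genes (top) and 23 metabolism and adhesion genes (bottom); points are libraries, horizontal lines are means and open triangles mark libraries with 0 counts. For *Esrrb*, *Fgf5*, *Cldn7*, *Cpt1a* and most of the others the 2 days are far apart, while *Pax6*, *Sox1* and *T* overlap between days.

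Genes of the early neural lineage divided. Of 30 listed, 20 had enough counts to be tested, 8 were called higher and 7 lower, and the median of -0.0052 had no direction. *Nes*, the intermediate filament of neural progenitors, rose from 10.2 to 16.6 CPM to 338, 282 and 268 CPM (log2 fold change 4.56, SE 0.23, adjusted p = 3.85e-08). *Irx3*, a homeobox gene of the neural plate, rose from 0.327, 0.265 and 0.157 CPM to 18.7, 17.2 and 26.6 CPM, and *Sox3* rose 16.7-fold. *Sox1*, a defining neural marker, was also called higher but by less. It read 9.16, 8.42 and 6.53 CPM and then 17.9, 8.61 and 19.7 CPM (log2 fold change 0.93, SE 0.28, adjusted p = 0.0096) with overlapping libraries. *Pax6*, another, was not called and stayed between 1.47 and 3.07 CPM at Day0 and between 1.66 and 2.17 CPM at Day3 (log2 fold change -0.23, adjusted p = 0.45), and *Sox21* fell 14.9-fold.

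Primitive streak and mesendoderm genes were at a low level, and part of their rise depended on 1 library. Of 19 listed, 11 were tested, 6 called higher and 4 lower, with a median log2 fold change of 1.19. *Fgf8*, a ligand of the streak, rose from 0.245, 0.464 and 0.0787 CPM to 2.31, 4.20 and 7.38 CPM, with a log2 fold change of 4.02 that was 4.76 without Day0 replicate 2. *T* (Brachyury) read 0.818, 0.398 and 1.34 CPM and then 0.747, 1.66 and 4.14 CPM, with overlap and a change of 1.36 in log2 (SE 0.56, adjusted p = 0.040). Day3 replicate 3 was the highest Day3 library for 9 of the 11 genes and for all 6 called higher. Without that library 3 were called higher and 4 lower, the median was 0.52, and *T* had a log2 fold change of 0.52 (adjusted p = 0.37); its call was also lost without Day0 replicate 1 (adjusted p = 0.089) or replicate 2 (adjusted p = 0.15). *Eomes*, called lower in the full comparison from a mean of 10.4 to 5.73 CPM, lost its call when Day0 replicate 2, Day3 replicate 1 or Day3 replicate 2 was left out, and *Sp5*, a direct Wnt target, fell 31.1-fold.

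Endoderm genes were mostly lower: 8 of 13 tested were called lower and 3 higher. The summed level of the 17 listed overlapped between the days, with 26.1 to 37.3 CPM at Day0 and 25.5 to 29.1 CPM at Day3. *Gata6* read 3.85, 2.52 and 2.44 CPM at Day0 and 0.815, 0.869 and 0.376 CPM at Day3, and *Gata4* and *Pdgfra*, which with it mark primitive endoderm, fell 3.68-fold and 3.30-fold. The endocytic adaptor *Dab2* rose 3.02-fold. Among trophoblast genes, 6 of 10 tested were lower and 4 higher. The falls were in transcription factors, such as *Tfap2c* (27.3-fold), and the rises were in keratins: *Krt8* went from 14.2 to 20.7 CPM to 298, 161 and 191 CPM and *Krt18* rose 18.8-fold. *Cdx2* and *Elf5*, defining trophoblast markers, did not have enough counts to be tested. Of the neural border and crest genes 5 of 9 tested fell and 3 rose, among them *Ets1* (5.99-fold higher) and *Grhl3* (8.37-fold lower).

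Libraries were also examined for other cell types that a culture on fibroblasts could hold; a sort for Rex1GFP+ cells, where it was done, would remove feeder cells. The summed level of 24 fibroblast genes was 76.7 to 113 CPM at Day0 and 376 to 590 CPM at Day3, and 13 of 20 tested were higher and 4 lower. Most of the rise in the sum (85.1%) came from *Acta2*, *Tagln* and *Cnn1*, genes of contractile cells, with *Tagln* at 7.69, 3.45 and 3.70 CPM and then 265, 137 and 160 CPM. Without these 3 the sum was 69.6 to 97.0 CPM at Day0 and 134 to 139 CPM at Day3, and 10 of 17 tested were higher and 4 lower. Those 10 were *Thy1* (from a mean of 3.91 to 25.4 CPM), *Mmp2* (7.29 to 28.9 CPM), *Dcn* (0.0715 to 2.60 CPM), *Fbn1*, *Loxl1*, *Twist1*, *Pdgfrb*, *Col1a2*, *Col5a2* and *Col6a2*. *Lum* and *Mmp3* had 0 counts in all 6 libraries, the collagen *Col1a1* fell from 16.9, 7.76 and 7.71 CPM to 3.05, 2.53 and 2.94 CPM, and *Col3a1*, *Postn* and *Lox* were the others called lower. Among the 14 blood and endothelial genes, 7 were tested, of which 2 were called higher and 3 lower. The summed level of the 14 fell from 343 to 388 CPM at Day0 to 16.6 to 19.8 CPM at Day3. That sum came mainly from *Laptm5* and *Pecam1*, of which *Pecam1* went from 93.7, 91.3 and 81.0 CPM to 1.43, 3.55 and 2.33 CPM; *Hbb-bt* and *Emcn* had 0 counts throughout. The part of other cells in the results was not tested beyond these levels.

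Germline genes are kept silent in somatic cells by promoter methylation and repressor complexes, and some are transcribed in naive mESCs. Of 32 listed, 24 were tested, 14 were called lower and 6 higher, and their summed level fell from between 671 and 711 CPM to between 151 and 176 CPM. *Dnmt3l*, which is also on the formative list, gave 54.7% of that difference, and without it the sum went from between 381 and 405 CPM to between 145 and 167 CPM. *Hormad1*, a protein of meiotic chromosome axes, fell from 30.7, 40.8 and 25.1 CPM to 0.883, 0.796 and 0.527 CPM, and *Dazl*, a germ cell RNA-binding protein, from 35.3, 35.0 and 25.5 CPM to 2.31, 2.46 and 1.58 CPM. *Tdrd1* and *Sycp3* went the other way, *Tdrd1* from 1.06, 1.06 and 1.34 CPM to 6.18, 8.76 and 7.08 CPM and *Sycp3* 2.60-fold. The libraries of the 2 days did not overlap for any of these 4 genes, as for 73.5% of all genes tested. Of 10 tested genes of 2-cell-like cells, in which early zygotic genes are on, 5 were lower and none higher; the calls of the *Zscan4* copies are uncertain, as reads of near-identical copies are divided by the quantifier, and those of *Zscan4f* and *Zscan4d* were lost when single libraries were left out.

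The promoters of these germline genes were searched for the E-box CACGTG, which Max-containing complexes bind, and for TTCCCGC, the core of a site for E2F proteins. The window was 250 bases before to 50 bases after a RefSeq start in GRCm38.p6. CACGTG, which is its own reverse complement, was in 14 of the 27 germline genes with a window (51.9%), in 11.6% of the genes tested and in 8.09% of all 27025 genes with a window. TTCCCGC on either strand was in 7 of the 27 (25.9%) against 9.79% of the genes tested. The motifs may share 1 base. Stretches of 70 bases before the start are shown for 2 genes that fell and 2 that rose, with 1 E-box of each in capitals (*Sycp3* and *Hormad1* hold a second in the window). They lie at chr3:95559590-95559659 (plus strand) for *Hormad1*, chr10:78049768-78049837 (plus) for *Dnmt3l*, chr19:56826168-56826237 (plus) for *Tdrd1* and chr10:88459514-88459583 (plus) for *Sycp3*.
Hormad1: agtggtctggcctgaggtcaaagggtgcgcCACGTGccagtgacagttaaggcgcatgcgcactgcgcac
Dnmt3l: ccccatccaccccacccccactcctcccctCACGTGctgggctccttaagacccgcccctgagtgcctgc
Tdrd1: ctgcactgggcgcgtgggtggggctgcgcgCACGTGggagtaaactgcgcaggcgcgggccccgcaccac
Sycp3: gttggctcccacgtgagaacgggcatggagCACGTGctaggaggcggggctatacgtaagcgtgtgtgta
The E-box was present in genes that fell and in genes that rose, and its share was 9.42% among all genes called higher by at least 2-fold and 11.3% among those called lower.

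**Figure D3:**
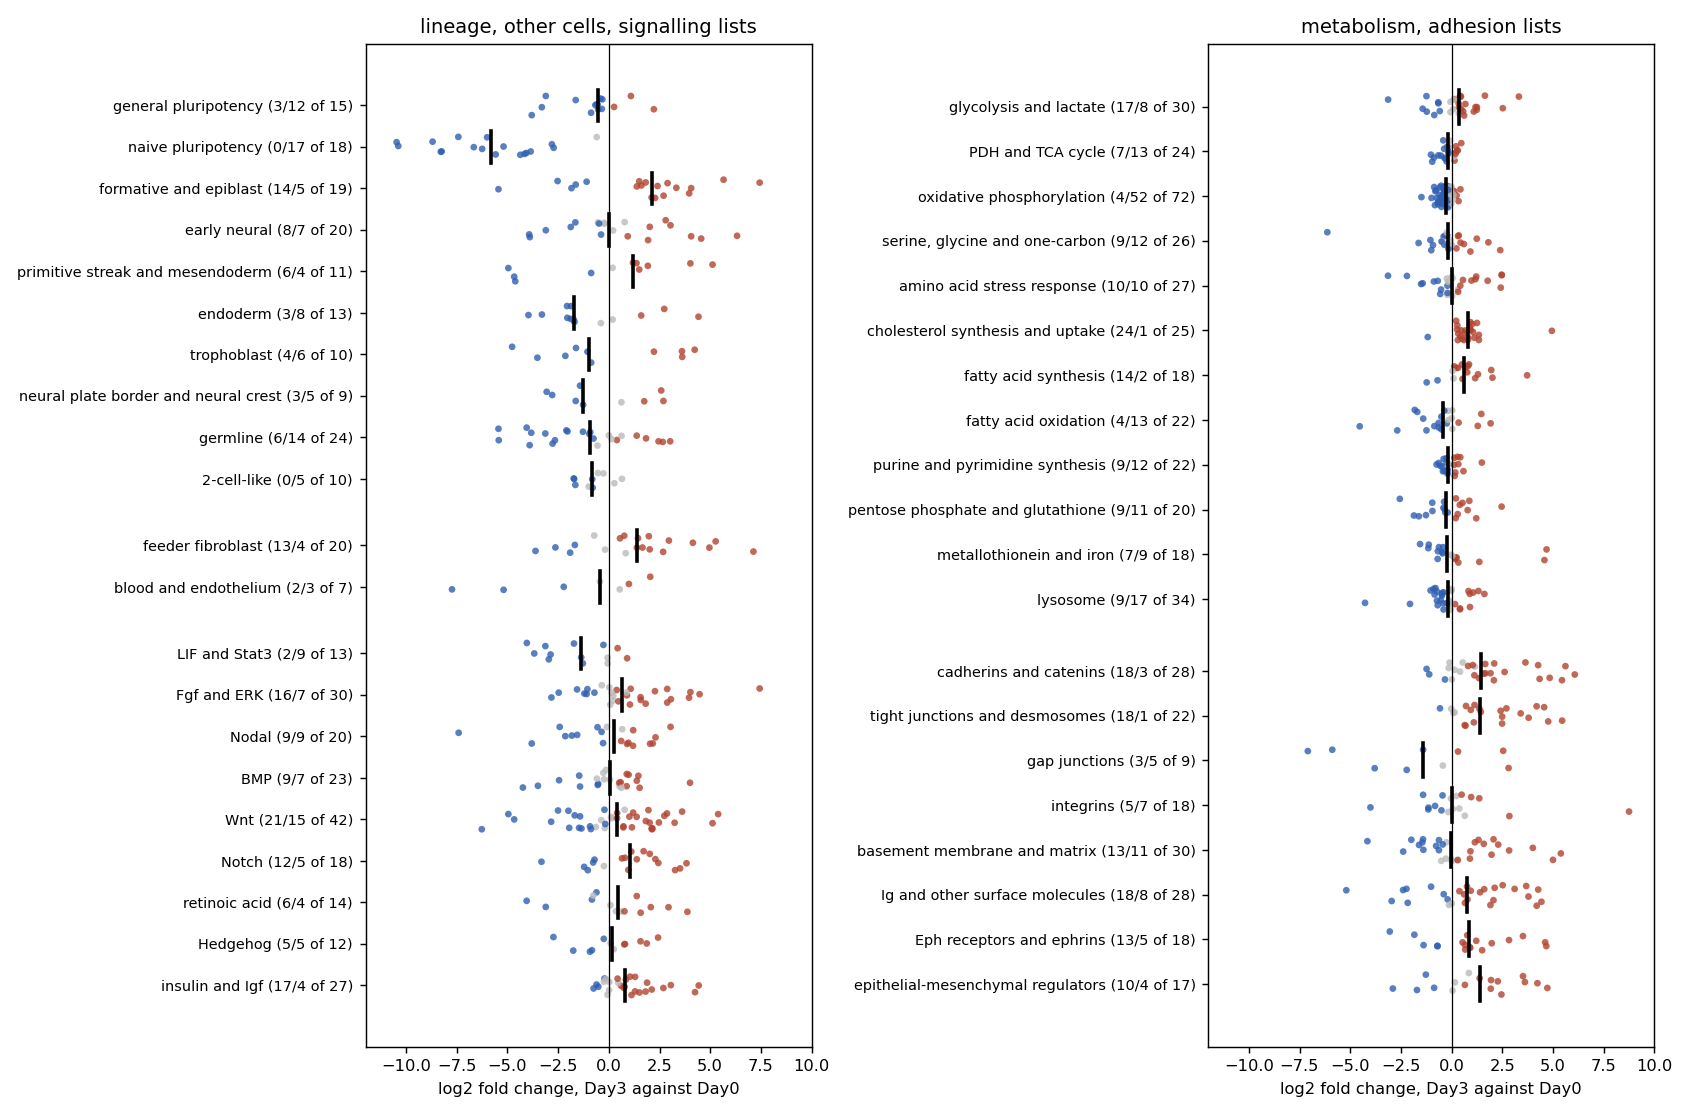
Log2 fold change at Day3 against Day0 of every tested member of the 41 gene lists; red points were called higher, blue lower and grey not called, black bars are list medians, and the labels give members called higher and lower of those tested. Naive pluripotency lies furthest to the left (17 of 18 lower), and cholesterol synthesis, tight junctions and cadherins lie to the right.

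Signalling genes were read in the order of ligand, receptor and target. LIF acts on its receptor and on gp130 (*Il6st*) to activate Stat3, and 9 of 13 genes of this list fell, with 2 higher and a median log2 fold change of -1.36. The receptor *Lifr* fell from 94.4, 100 and 106 CPM to 7.47, 6.37 and 9.71 CPM (log2 fold change -3.68, SE 0.12, adjusted p = 2.42e-15). The transcription factor *Stat3* itself fell from 146, 147 and 154 CPM to 21.2, 18.5 and 21.3 CPM, and its feedback target *Socs3* from 87.9, 79.7 and 116 CPM to 15.9, 10.1 and 10.2 CPM. Receptor, factor and target were thus lower in every Day3 library. *Lif* and the kinase *Jak1* were not called, at mean levels of 10.3 and 9.96 CPM and of 78.4 and 75.0 CPM.

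The Fgf and ERK list held 16 higher and 7 lower genes of 30 tested, with a median log2 fold change of 0.67. Its ligands exchanged places: *Fgf4*, the ligand of naive mESCs, fell from 270, 281 and 274 CPM to 32.2, 69.1 and 47.6 CPM as *Fgf5* rose, and *Fgf15* rose 15.5-fold from a mean of 0.887 CPM. The receptor *Fgfr2* rose from 6.63, 4.91 and 6.45 CPM to 57.6, 37.8 and 35.8 CPM. The immediate-early target *Egr1* rose from 3.85, 7.89 and 1.89 CPM to 160, 114 and 40.8 CPM (log2 fold change 4.48, SE 0.69, adjusted p = 0.00038) with a wide spread on both days, and its log2 fold change was 5.20 without Day0 replicate 2. The feedback phosphatase *Dusp6* rose 3.52-fold, while *Etv5*, another target, fell 2.08-fold. Targets of the same pathway therefore did not share a direction.

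Nodal pathway genes were split, 9 higher and 9 lower of 20 tested. The ligand *Nodal* fell from 93.0, 84.7 and 83.4 CPM to 22.5, 28.8 and 37.3 CPM, and the activin subunit *Inhbb* fell from 20.1, 17.3 and 28.4 CPM to single counts. *Pcsk6*, a protease that matures Nodal, fell 5.36-fold. The inhibitor and target *Lefty1* rose from 8.92, 21.1 and 7.95 CPM to 43.6, 58.6 and 72.8 CPM; *Lefty2* was not called. In the BMP list, 9 of 23 were higher and 7 lower. *Bmp4*, the main ligand in mESCs, fell from 28.1, 22.5 and 43.3 CPM to 2.44, 2.61 and 3.24 CPM, and its targets *Id3* and *Id4* fell 2.75-fold and 18.9-fold. The receptor *Bmpr1b* rose from 0.491, 0.199 and 0.630 CPM to 6.45, 6.66 and 7.91 CPM. Other members went the other way: *Id2* rose 1.97-fold, and the ligands *Bmp2*, *Bmp6* and *Bmp8b*, at means of 2.14 CPM or less at Day3, rose 2.60-fold to 2.87-fold.

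In the Wnt list, 21 of 42 were higher and 15 lower. Ligands that came on were at a low level: *Wnt8a* rose from 0.0818, 0.199 and 0.157 CPM to 2.51, 4.92 and 12.8 CPM, with a log2 fold change of 5.39 that was 4.54 without Day3 replicate 3. Receptors changed over, *Fzd2* rising from 8.18, 9.55 and 5.82 CPM to 103, 90.3 and 98.3 CPM and *Fzd5* falling from 198, 209 and 252 CPM to 35.8, 41.5 and 38.6 CPM. Feedback inhibitors were split, *Notum* falling from 44.1, 39.2 and 51.6 CPM to 0.679, 0.217 and 0.828 CPM and *Axin2* by 2.67-fold, while *Nkd1* and *Rnf43* rose 3.87-fold and 4.45-fold. The factor *Lef1* rose 4.32-fold. The co-receptor *Lrp6* was not called (94.2 and 102 CPM). Notch genes rose on balance, 12 of 18 higher and 5 lower with a median log2 fold change of 1.04. The list members *Dll3* and *Hes6* rose 9.64-fold and 5.44-fold. The receptor *Notch3* went from 76.7, 79.2 and 56.8 CPM to 228, 223 and 249 CPM. *Notch4* fell from 17.8, 18.8 and 20.9 CPM to 2.51, 1.88 and 1.28 CPM. *Hes1*, the general Notch target, was not called at 47.5 and 40.0 CPM, but was called lower without Day3 replicate 1 (log2 fold change -0.56, adjusted p = 0.0019).

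Retinoic acid and Hedgehog genes were mixed. *Crabp2*, which carries retinoic acid to its receptor, rose from 2.29, 2.65 and 1.26 CPM to 34.9, 28.7 and 29.1 CPM, while *Aldh1a2*, which makes retinoic acid, fell by 3.11 on the log2 scale, and by 3.78 without Day3 replicate 1. For Hedgehog, the transducer *Smo* rose from 31.8, 33.5 and 24.2 CPM to 158, 157 and 168 CPM, while the effector *Gli2* and the target *Gli1* fell 3.38-fold and 6.65-fold. Of the 27 insulin and Igf genes tested, 17 were higher and 4 lower, with a median log2 fold change of 0.78. The largest rise was in the binding protein *Igfbp5* (21.6-fold, from a mean of 1.69 to 36.8 CPM). The receptor substrates also rose, *Irs1* from 2.86, 4.64 and 1.10 CPM to 27.9, 19.8 and 26.1 CPM and *Irs4* from 0.982, 0.729 and 0.236 CPM to between 11 and 15.4 CPM. *Tsc2*, a negative regulator of mTORC1, fell 1.68-fold.

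**Figure D4:**
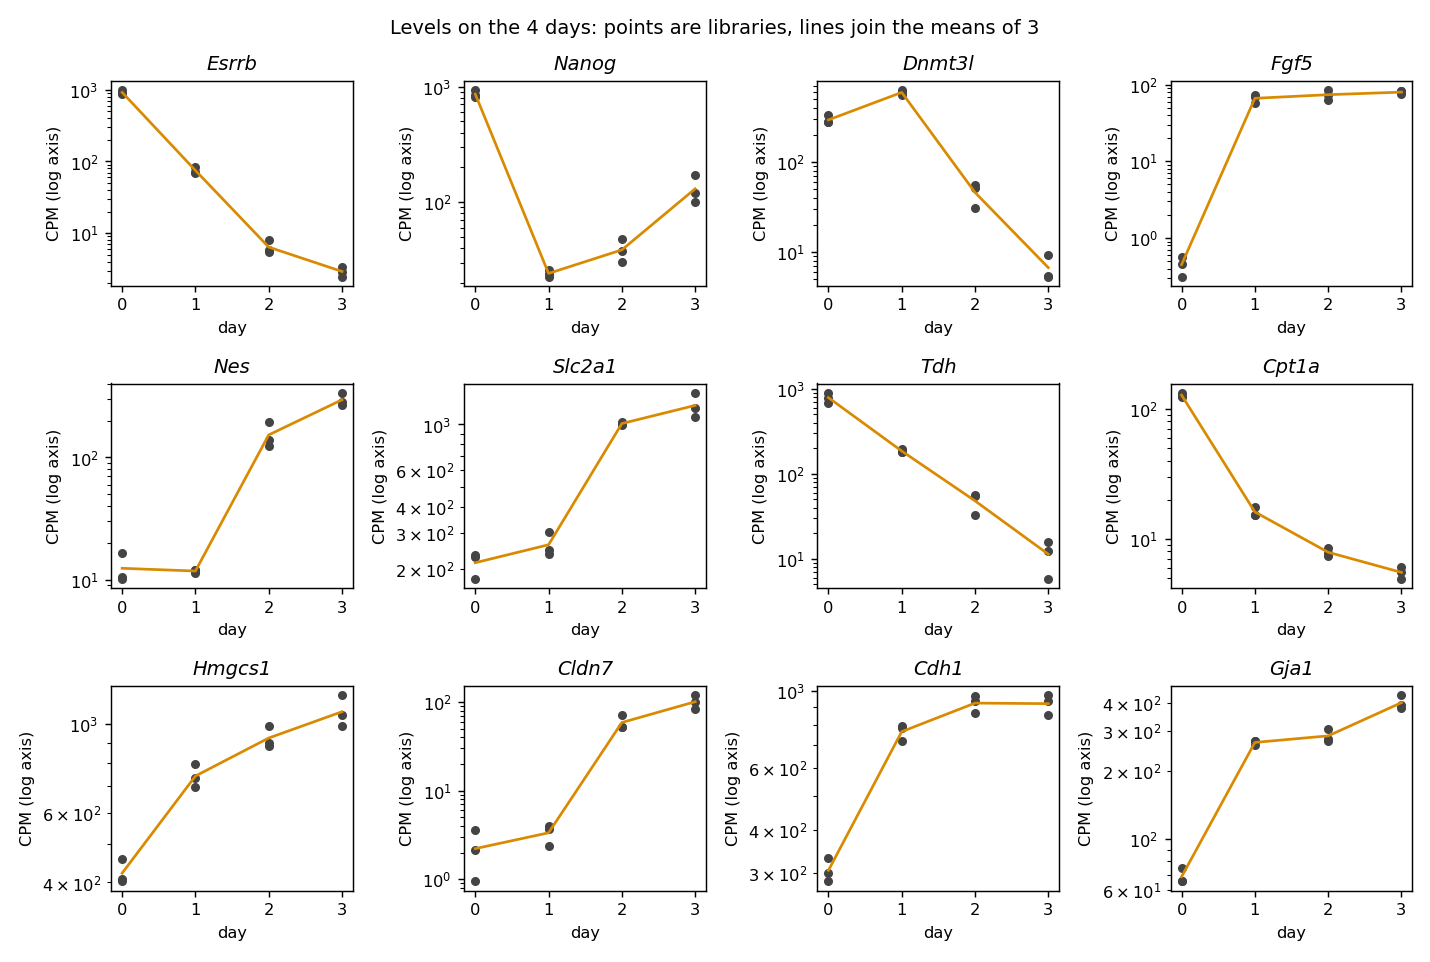
CPM (log axis) of 12 genes on Day0, Day1, Day2 and Day3; points are the 3 libraries of a day and lines join their means. *Nanog* was lower on Day1 (mean 24.2 CPM) and Day2 (38.6 CPM) than on Day3, *Dnmt3l* passed through 592 CPM on Day1, and *Tdh*, *Cpt1a* and *Cldn7* ended furthest from Day0 on Day3.

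Some metabolic lists leaned higher or lower and others were split, and isoforms of some proteins moved in opposite directions. Of 30 genes of glycolysis and lactate, 17 were higher and 8 lower, with a median log2 fold change of 0.36. The glucose transporter *Slc2a1* (Glut1) rose from 230, 235 and 179 CPM to 1423, 1088 and 1199 CPM (log2 fold change 2.53, SE 0.13, adjusted p = 3.37e-09), while *Slc2a3* (Glut3) fell from 1141, 1109 and 1064 CPM to 665, 493 and 676 CPM. The lactate exporter *Slc16a3* rose from 33.0, 48.1 and 10.2 CPM to 340, 298 and 287 CPM. Lactate dehydrogenase A (*Ldha*) rose from 392, 498 and 269 CPM to 1175, 1234 and 1220 CPM, and the B subunit (*Ldhb*) fell 2.69-fold. For *Slc16a3* and *Ldha*, Day0 replicate 3 was the lowest library, but all Day3 libraries lay above all Day0 libraries. Phosphofructokinases also exchanged, *Pfkp* falling from 190, 221 and 168 CPM to 20.4, 24.0 and 21.8 CPM and *Pfkl* rising 2.37-fold. *Gapdh* was not called (log2 fold change 0.08, adjusted p = 0.18). Per length, *Ldha* reached 1526 ± 55.7 TPM at Day3 and *Ldhb* 203 ± 20.1 TPM.

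Oxidative phosphorylation genes fell by small amounts. Of 72 tested nuclear genes of the respiratory complexes, 52 were lower and 4 higher, with a median log2 fold change of -0.27, and 1 was lower by at least 2-fold. *Cox5a*, a subunit of cytochrome oxidase, read 233, 226 and 237 CPM and then 130, 127 and 126 CPM, and *Cox6a1* fell 1.77-fold. Across the other processing choices tried, between 39 and 52 were lower and between 3 and 7 higher. Of the pyruvate dehydrogenase and TCA cycle genes, 13 of 24 were lower and 7 higher. *Pdha1*, the catalytic subunit that admits pyruvate to the cycle, fell from 366, 389 and 383 CPM to 210, 204 and 209 CPM, and *Pcx* fell 2.02-fold; citrate synthase (*Cs*) was not called, at 345 and 325 CPM.

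Cholesterol genes rose almost as a block. All 25 were called, 24 higher and 1 lower, with a median log2 fold change of 0.79, and each alternative gave the same split except that 23 of 24 were higher where 10 counts were required in every library. *Hmgcs1*, an early step of the mevalonate pathway, rose from 407, 457 and 402 CPM to 1184, 1054 and 991 CPM (log2 fold change 1.35, SE 0.07, adjusted p = 7.09e-12). *Fdps* rose from 139, 140 and 137 CPM to 386, 360 and 316 CPM. Of the 24 that rose, 7 did so by at least 2-fold. *Ebp*, a sterol isomerase, was the gene that fell, 2.26-fold. The sterol element TCACNCCAC, a motif chosen after the values had been seen, was found in 1 of the 17 cholesterol genes with a window (5.88%), *Hmgcs1*, against 1.44% of the genes tested.

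Fatty acid genes divided by direction of the pathway. Of 18 genes of synthesis and desaturation, 14 were higher and 2 lower. The desaturase *Fads2* rose from 42.5, 43.4 and 39.3 CPM to 169, 167 and 172 CPM, and acetyl-CoA carboxylase (*Acaca*) rose 2.47-fold; *Acly* was not called (590 and 631 CPM). Of 22 oxidation genes, 13 were lower and 4 higher, with a median log2 fold change of -0.43. *Cpt1a*, which commits fatty acids to the mitochondria, fell from 133, 123 and 127 CPM to 6.11, 5.50 and 4.89 CPM (log2 fold change -4.53, SE 0.09, adjusted p = 4.89e-18). The carnitine carrier *Slc25a20* fell 6.41-fold and the dehydrogenase *Acadm* 3.52-fold, while the muscle form *Cpt1b* rose from 4.66, 6.89 and 1.42 CPM to 20.5, 15.7 and 14.1 CPM.

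Amino acid and redox genes included some of the deepest falls. Threonine dehydrogenase (*Tdh*), which in mouse cells feeds threonine to glycine and acetyl-CoA, fell from 782, 679 and 896 CPM to 5.77, 15.8 and 12.3 CPM (log2 fold change -6.13, SE 0.32, adjusted p = 1.55e-07). In its list of 26 serine, glycine and one-carbon genes 9 were higher and 12 lower, and *Slc1a4*, a neutral amino acid transporter, rose 3.52-fold. The 27 amino acid stress genes were even, with 10 higher and 10 lower: *Ddit4*, an inhibitor of mTORC1, rose from 31.0, 44.3 and 15.5 CPM to 166, 154 and 192 CPM, and *Nupr1* fell 8.78-fold. *Slc7a5*, a large neutral amino acid transporter, was not called (385 and 394 CPM). Of the pentose phosphate and glutathione genes 9 of 20 were higher and 11 lower; glutathione synthetase (*Gss*) fell from 106, 93.3 and 119 CPM to 18.7, 16.9 and 18.5 CPM. Purine and pyrimidine genes moved little, with 9 of 22 higher and 12 lower but only *Adssl1* past 2-fold.

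Iron and lysosome genes had a few large movements within lists that moved little. Of the metallothionein and iron genes 7 of 18 were higher and 9 lower. Ferroportin (*Slc40a1*), the iron exporter, rose from 0.818, 0.729 and 0.866 CPM to 23.0, 22.7 and 16.7 CPM, and the metal importer *Slc39a8* rose 24.0-fold. Of 34 lysosome genes, 17 were lower and 9 higher. *Tfeb*, a regulator of lysosome genes, fell from 63.4, 58.5 and 58.2 CPM to 3.12, 3.33 and 2.86 CPM, and the protease *Ctsa* fell 2.05-fold, while the receptor for autophagy *Sqstm1* was not called (218 and 215 CPM).

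Adhesion genes rose on balance. Of 28 cadherins and catenins tested, 18 were higher and 3 lower, with a median log2 fold change of 1.48. *Cdh1* (E-cadherin) rose from 332, 301 and 284 CPM to 935, 974 and 856 CPM (log2 fold change 1.59, SE 0.07, adjusted p = 1.24e-13), and *Cdh2* (N-cadherin) from between 11.7 and 12.6 CPM to 23.6, 24.4 and 31.3 CPM. Both were higher in each Day3 library, and per length *Cdh1* stayed far above *Cdh2* at Day3, with 407 ± 18.6 against 11.1 ± 2.02 TPM. *Pcdh1*, a protocadherin, rose from 2.62, 3.05 and 2.44 CPM to 123, 135 and 145 CPM. Beta-catenin (*Ctnnb1*), which links cadherins to the cytoskeleton, was not called, at 796 and 805 CPM.

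Tight junction and desmosome genes also rose on balance: 18 of 22 tested were higher and 1 lower, with a median log2 fold change of 1.41. *Cldn7* and *Cldn6* are claudins, the sealing proteins of tight junctions. *Cldn7* rose from 2.13, 3.58 and 0.944 CPM to 119, 100 and 83.0 CPM, the largest fold in the list, and *Cldn6* from 9.57, 8.62 and 4.49 CPM to 208, 184 and 148 CPM. The desmosomal cadherin *Dsc2* rose 27.3-fold, and the plakophilin *Pkp4* was not called (150 and 148 CPM). Of 17 epithelial and mesenchymal regulators, 10 were higher and 4 lower. *Esrp1*, an epithelial splicing factor, rose from 6.95, 7.42 and 4.49 CPM to 180, 175 and 148 CPM. *Epcam*, from the list of surface adhesion molecules, rose 5.75-fold. Mesenchymal genes were split: *Vim* and *Zeb1* fell 3.26-fold and 7.44-fold, whereas *Zeb2* and *Snai3* rose 5.51-fold and 11.5-fold. The list of regulators thus held rises of epithelial and of mesenchymal members.

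Gap junction genes exchanged members, 3 of 9 tested higher and 5 lower. *Gjb5*, a beta connexin, fell 13.9-fold from a mean of 22.3 CPM, while *Gja1* (connexin 43) rose from 65.4, 65.3 and 74.8 CPM to 431, 392 and 377 CPM. Among integrins 5 of 18 were higher and 7 lower: *Itgb8* had no count at Day0 and 4.21, 3.84 and 4.14 CPM at Day3, at least 17.9-fold higher against the same floor of 3 counts per library, *Itga3* rose from 28.6, 24.1 and 23.0 CPM to 192, 171 and 183 CPM, and *Itgb7* fell from a mean of 10.1 CPM to 0.339, 0.579 and 0.979 CPM. *Itga6*, a laminin receptor subunit, was not called (182 and 179 CPM). Basement membrane and matrix genes were split, 13 higher and 11 lower of 30. *Nid1*, which links laminin to collagen, fell from 285, 205 and 268 CPM to 16.4, 11.9 and 14.2 CPM and fibronectin (*Fn1*) from 1053, 966 and 1106 CPM to 304, 254 and 231 CPM, whereas *Has2*, which makes hyaluronan, rose from 0.654, 0.331 and 0.315 CPM to 15.1, 16.4 and 23.3 CPM. Perlecan (*Hspg2*) was not called at 407 and 401 CPM.

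Of the immunoglobulin and other surface adhesion molecules, 18 of 28 were higher and 8 lower. *Nfasc* (neurofascin) rose from 3.27, 3.71 and 3.23 CPM to 73.9, 71.7 and 76.9 CPM and *Nrcam* rose 18.4-fold. All 18 Eph receptors and ephrins tested were called, 13 higher and 5 lower. *Epha1* rose from 2.70, 2.12 and 3.54 CPM to 59.9, 67.7 and 76.3 CPM, and *Epha4* fell from 75.3, 69.8 and 72.9 CPM to 6.31, 7.17 and 13 CPM. The ligand *Efnb2* rose 7.14-fold.

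Because muscle actins led the rises, 22 genes of the contractile and actin cytoskeleton were gathered after the values had been seen, and their count is a description only. Of these 19 were higher and none lower, with a median log2 fold change of 1.89. *Actc1* read 0.164, 0.0663 and 0 CPM at Day0 and 62.9, 38.9 and 41.5 CPM at Day3 (without Day0 replicate 1 its log2 fold change was 10.04), and *Acta1* 0.245, 0.0663 and 0.315 CPM and then 102, 45.2 and 51.2 CPM. Reads of the actin genes can be divided between near-identical copies, so the share of each is uncertain. *Myl9*, the regulatory light chain of non-muscle and smooth muscle myosin, rose from 1.55, 1.39 and 2.68 CPM to 70.7, 52.1 and 48.6 CPM. *Srf*, the serum response factor, rose from 66.6, 67.9 and 77.4 CPM to 200, 162 and 159 CPM, and *Actb* was not called (log2 fold change 0.03).

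The level of these genes in Day3 depended on the library. Day3 replicate 1 was the highest Day3 library for 21 of the 22 genes, against 45.1% of all genes called higher. Without it 19 were still called higher and the median log2 fold change was 1.73; *Des* lost its call and *Mrtfa*, a cofactor of Srf, gained one. The 5 targets of YAP and TEAD, also gathered afterwards, were all higher and all highest in Day3 replicate 1. *Ccn2* rose from 30.8, 31.1 and 35.7 CPM to 155, 94.1 and 105 CPM, and *Thbs1* from 8.51, 2.59 and 5.27 CPM to 264, 117 and 130 CPM. The median of the 5 was 2.11, and 1.61 without that library, when *Ankrd1* was no longer called (adjusted p = 0.061). The value of 2.11 was that of *Ankrd1* itself, a gene near the floor with means of 0.311 CPM at Day0 and 1.32 CPM at Day3. Its libraries overlapped between the days. A set of 16 chaperones examined likewise had 4 higher and 6 lower genes, with *Hspa5*, a chaperone of the endoplasmic reticulum, 1.86-fold higher.

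**Figure D5:**
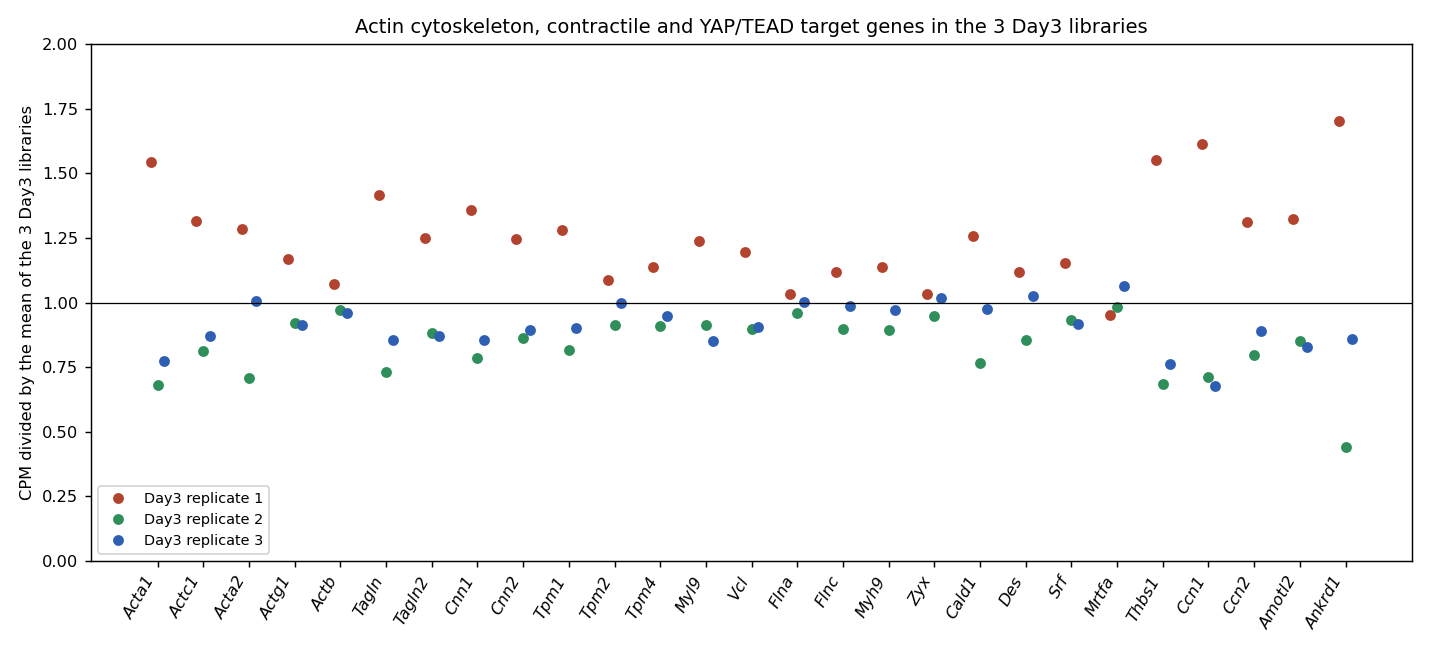
CPM in each Day3 library divided by the mean of the 3 Day3 libraries, for 22 genes of the actin cytoskeleton and contractile apparatus and 5 targets of YAP and TEAD; the line at 1 is the mean and colours mark the replicates. Day3 replicate 1 (red) is the highest for 21 of the 22 and for all 5.

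Srf binds the CArG box, a run of A and T between a pair of C and a pair of G, and promoters of the contractile genes were searched for it after the values had been seen. It was found in 7 of the 20 genes with a window (35.0%), in 1.58% of the genes tested and in 1.81% of all genes with a window. Among all genes called higher by at least 2-fold the share was 2.53%, and among those called lower 1.53%. Each of 4 motifs was counted in the same 4 gene lists. The CArG box was in none of the 17 cholesterol, 27 germline or 12 naive pluripotency genes with a window. These lists were too small to compare at such shares. The contractile set was gathered after the values had been seen and holds *Srf* and its cofactor *Mrtfa*, so its share is a description only. Whether the box bears on the rise was not tested. Stretches of 70 bases show 1 box each in capitals (*Srf* holds a second, in lower case), for *Acta1* at chr8:123894809-123894878 (minus strand), *Actc1* at chr2:114052883-114052952 (minus), *Myl9* at chr2:156775273-156775342 (plus) and *Srf* at chr17:46556205-46556274 (minus).
Acta1: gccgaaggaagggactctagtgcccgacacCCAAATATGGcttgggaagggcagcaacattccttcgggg
Actc1: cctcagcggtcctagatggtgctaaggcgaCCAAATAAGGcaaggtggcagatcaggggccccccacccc
Myl9: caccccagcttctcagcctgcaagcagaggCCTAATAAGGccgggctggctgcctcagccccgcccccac
Srf: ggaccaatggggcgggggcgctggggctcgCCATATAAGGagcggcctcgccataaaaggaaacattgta
A match says only that these letters stand in the window.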

How the data were processed

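RNA-seq was measured in 12 time-course libraries (3 each on Day0, Day1, Day2 and Day3), of which the 6 of Day0 and Day3 were compared. Per the labels, total RNA was extracted with an RNeasy kit, and the submitters' processing notes name kallisto 0.42.1, DESeq2 and mm10. The authors deposited estimated counts per transcript, which kallisto divides between similar transcripts, and TPM, which are scaled by transcript length and library size. Here, 34079 transcripts were assigned to 24296 genes by the RefSeq gene table of GRCm38.p6 (33713) or GENCODE M21 (192), 174 were left out, and counts were summed per gene and rounded. All 12 libraries (12503005 to 15305054 counts) were fitted with edgeR 4.0.16 in R 4.3.3 (TMM, filterByExpr, robust quasi-likelihood). The contrast was Day3 minus Day0, with Benjamini-Hochberg adjustment over 14382 genes and a threshold of 0.05. Adjusted p-values are from this fit, except those given for a library left out, which are from the same fit without that library. The standard error is the log2 fold change divided by the root of F. CPM use normalized library sizes, and counting error allows 3 counts per library (on average 0.216 CPM at Day3) where none was seen. Lists were described by counts and medians without a set test. The method was tested on simulated data in which a small share of genes changed, equally up and down. That setting differs from these data, where 70.9% of the genes were called, so it does not test the normalization here. Alternatives were DESeq2 1.42.0, limma 3.58.1 on log2(TPM + 1), other filters and normalization, a replicate block and leaving out each library.

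Members and lists were chosen with earlier results of these data known. Genes named were the 12 largest rises and falls with a mean of at least 10 CPM and no overlap, the 6 largest in TPM, up to 4 called and 2 uncalled genes per list, and fixed markers. Named outside this rule, after their values were seen, were the added sets and single genes of known role in a list. Promoter windows were from RefSeq. Results for some genes are not reported here.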

Additional observations from a re-analysis of the deposited data

How the results depend on the processing

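The number of genes called stayed within 1.5 times the 10201 of the comparison under each alternative tried (70 of 75 counts in all), and genes called both there and under an alternative never had opposite directions. The 5 counts that moved further were those of changes of at least 2-fold. They were 1373 higher and 1087 lower where at least 10 counts were required in every library, which tests 11704 genes, 1223 lower by limma on log2(TPM + 1), and 895 higher and 665 lower by limma on log2(TPM + 5), where the pseudocount compresses changes of low genes. On the scale of log2(TPM + 1), 56.0% of the calls were higher against 49.4% in the edgeR fit, and the median log2 fold change of all genes was 0.063 against -0.013.

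Of the list medians more than 0.1 from 0, 3 changed sign under an alternative: the streak list was -0.85 with at least 10 counts in every library, which left 1 gene, the blood and endothelial list was 0.22 without Day0 replicate 3, and the Nodal list was -0.013 without Day3 replicate 3. Without single libraries the blood and endothelial median ranged from -0.72 to 0.22 and the Nodal median from -0.013 to 0.47. Medians close to 0 (early neural, BMP, amino acid stress, integrins, basement membrane and matrix) have no direction. Leaving out each library gave 9676 to 9806 calls. Of the named genes, none reversed under any alternative; 43 comparisons lost a call and 90 gained one, against 4223 that did neither.

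The deviations of same-numbered Day0 and Day3 libraries correlated at 0.046, -0.038 and 0.10, and those of unlike numbers at -0.14 to 0.12. With 3 libraries per day this cannot show whether the cultures were paired, and the labels state no pairing. A fit with the replicate block called 10228 genes. With 3 libraries per day, small changes of genes at few counts could not be separated from the spread between libraries.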

Other observations

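Among the 16 chaperones and related genes, the called cytosolic chaperones were all lower. The called ones of the endoplasmic reticulum were higher, except *Canx*. *Hsp90aa1*, the stress-responsive form of cytosolic Hsp90, read 4578, 4545 and 4526 CPM at Day0 and 2444, 2740 and 2519 CPM at Day3 (log2 fold change -0.83, SE 0.06, adjusted p = 8.05e-10). *Hspa8*, the constitutive cytosolic Hsp70, fell 1.35-fold, and *Hspb1* fell 12.5-fold. *Hsph1* and *Dnajb1* were also called lower, while the cytosolic *Hsp90ab1*, *Hspa1a* and *Hspa1b* were not called. Of the endoplasmic reticulum, *Hspa5*, *Hsp90b1* and *Calr* rose 1.86-fold, 1.56-fold and 1.20-fold, and *Pdia4* was not called. *Canx* fell 1.11-fold, but its call was lost without Day0 replicate 3 (adjusted p = 0.051). The mitochondrial *Hspd1* and *Hspe1* were not called either, and *Hsf1*, the heat shock factor, rose 1.18-fold. The set was formed after the values had been seen.

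*Mif*, a secreted cytokine, rose 1.89-fold, from 254, 278 and 251 CPM to 510, 499 and 470 CPM, and was among the 6 largest rises per length, from 1225 ± 72.3 to 2457 ± 58.5 TPM (SD, n = 3). *Ftl1*, the ferritin light chain, was also among them, from 6293 ± 231 to 7575 ± 643 TPM, but its call (log2 fold change 0.18, adjusted p = 0.019) was lost without Day0 replicate 1 or Day3 replicate 1. *Ifitm2*, an interferon-induced membrane protein, fell from 358, 391 and 340 CPM to 114, 112 and 108 CPM.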
